A study of Mus musculus with 22 samples.

Results

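Ataxin genes are named after hereditary ataxias, movement disorders in which the cerebellum and brainstem degenerate, and Capicua is the repressor protein with which ataxin-1 works. The 8 genes described here are Atxn1, its close relative Atxn1l, Cic, which encodes Capicua, and Atxn2, Atxn2l, Atxn3, Atxn7 and Atxn10. They were taken by name out of 24421 genes, and all 8 passed the filter on low counts in both sexes. The set was assembled because Atxn1 stood out when dominant and submissive females were compared, so its values in that comparison describe how it was chosen and are not a test.

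Reads were counted per gene in total RNA of the right brain hemisphere of 22 C57B6/J OlaHsd mice. Male mice formed groups of 7 winners and 7 losers, called dominant and submissive by the labels, and female mice formed the same groups with 4 in each, and the labels name no genetic change and no drug. Mice were kept 4 to a cage and ranked at 10 to 12 weeks of age by the tube test, in which 1 cagemate pushes another out of a narrow tube. Winner and loser of each cage were killed together, and the library names place mice of the same sex and replicate number in 1 cage. Male cages are therefore called by the replicate number, 1 to 7. Female replicates 1 and 2 came from cages with a number for a name, and replicates 3 and 4 from units named Gr1 and Gr2. Females of intermediate rank were regrouped and tested again in this study, and the names do not say whether Gr1 and Gr2 were such groups. Each mouse gave 1 library, and each library pools every cell type of a hemisphere, so that fewer cells of a type and less RNA per cell cannot be told apart. The males and the females were sequenced under different library name series and deposited as separate tables, so sex and sequencing cannot be told apart either.

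In the nucleus, ataxin-1 and its relative ATXN1L bind and stabilise Capicua, which sits on DNA and represses genes of the receptor tyrosine kinase pathway, among them the Etv transcription factors and the Spry and Dusp inhibitors of MAP kinase signalling. Ataxin-2 and ataxin-2-like are RNA-binding proteins of the cytoplasm and of stress granules, ataxin-3 is a deubiquitinating enzyme, and ataxin-7 anchors the deubiquitinating module of the SAGA coactivator complex. Expansion of a polyglutamine tract in ataxin-1, ataxin-2, ataxin-3 or ataxin-7 causes a spinocerebellar ataxia, whereas the ATXN10 disease comes from a repeat in an intron.

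Capicua recognises 8-base DNA motifs, and these were searched on both strands as TGAATGAA, TGAATGAG, TGAATGGA, TGAATGGG, TCAATGAA, TCAATGAG, TCAATGGA and TCAATGGG in the 250 bases before each RefSeq start site (GRCm38.p6). Of 32851 such promoters, 1925 (5.86%) held at least 1 of them. Of the members, 7 had a promoter in this set, with Atxn1 missing, and 3 of their 10 promoters held a motif. Of the 12 Capicua targets listed for this work, 8 had a promoter among those searched, and 4 of their 10 promoters held a motif. That search left out a chromosome that the 32851 promoters include, so a target counted without a promoter may have one there. A match describes the letters of the window and is not a binding site. The sequences below are those of Atxn1l and Atxn7, members with a motif, of Atxn2 and Atxn2l, whose levels moved with Atxn7 across male cages, and of the Capicua targets Etv5 and Spry2, which like Cic were higher in the female table. They run 5′ to 3′ on the gene's strand, and capitals mark the motif or its reverse complement. The windows are chr8:109737781-109738030 (minus strand) for Atxn1l, chr14:14012241-14012490 (plus) for Atxn7, chr5:121711359-121711608 (plus) for the first start of Atxn2, chr7:126503438-126503687 (minus) for the first start of Atxn2l, chr16:22438369-22438618 (minus) for the second start of Etv5 and chr14:105896820-105897069 (minus) for Spry2.
Atxn1l: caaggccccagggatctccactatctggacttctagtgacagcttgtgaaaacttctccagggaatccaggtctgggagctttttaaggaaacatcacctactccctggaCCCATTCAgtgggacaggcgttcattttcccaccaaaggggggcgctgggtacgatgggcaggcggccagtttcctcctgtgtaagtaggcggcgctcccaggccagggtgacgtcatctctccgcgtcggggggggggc
Atxn7: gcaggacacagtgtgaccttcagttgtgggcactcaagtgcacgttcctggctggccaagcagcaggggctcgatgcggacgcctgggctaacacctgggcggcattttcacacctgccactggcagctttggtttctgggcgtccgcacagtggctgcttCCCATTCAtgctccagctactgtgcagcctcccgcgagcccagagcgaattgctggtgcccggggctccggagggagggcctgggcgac
Atxn2: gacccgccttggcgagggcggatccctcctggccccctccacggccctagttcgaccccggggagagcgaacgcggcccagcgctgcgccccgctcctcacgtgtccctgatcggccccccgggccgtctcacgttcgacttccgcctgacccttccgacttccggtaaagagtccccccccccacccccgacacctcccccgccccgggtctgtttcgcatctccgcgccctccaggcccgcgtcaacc
Atxn2l: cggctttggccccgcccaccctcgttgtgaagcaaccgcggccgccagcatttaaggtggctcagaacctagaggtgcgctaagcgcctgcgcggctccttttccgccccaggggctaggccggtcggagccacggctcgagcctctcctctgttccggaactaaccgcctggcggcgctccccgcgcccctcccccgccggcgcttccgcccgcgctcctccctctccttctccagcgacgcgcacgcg
Etv5: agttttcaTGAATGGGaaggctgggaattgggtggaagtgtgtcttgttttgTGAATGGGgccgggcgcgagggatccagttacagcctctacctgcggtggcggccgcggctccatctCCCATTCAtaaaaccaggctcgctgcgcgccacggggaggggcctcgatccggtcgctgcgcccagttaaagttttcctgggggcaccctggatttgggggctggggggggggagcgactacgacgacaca
Spry2: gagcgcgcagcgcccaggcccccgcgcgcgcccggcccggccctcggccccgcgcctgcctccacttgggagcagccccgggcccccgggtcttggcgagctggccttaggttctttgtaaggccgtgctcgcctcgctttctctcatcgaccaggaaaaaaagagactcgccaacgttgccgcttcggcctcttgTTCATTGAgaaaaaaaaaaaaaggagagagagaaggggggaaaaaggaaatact

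The Etv5 window held 3 motifs, and those of Atxn1l, Atxn7 and Spry2 held 1 each. No motif was found at either start of Cic or Atxn2l or at the first start of Atxn2 or Etv5. The second start of Atxn2 held 1. The Atxn2 and Atxn2l windows were rich in G and C, at 73.2% and 71.6%.

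Libraries held between 12403943 and 16488762 counted reads, and levels are given as CPM, read counts scaled for depth by the TMM method of edgeR. Dominant male 1 stood apart in cerebellar genes. Its 5 Purkinje cell markers summed to 191 CPM, against 545 to 897 CPM in the other 13 males, its 4 granule cell markers summed to 33.5 CPM against 241 to 492 CPM, and the Purkinje marker Pcp2 was at 0 in that library alone among the males. No exon base of any member was shared with another gene in the annotation of the files.

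Per kilobase of exon, which allows genes to be compared, Atxn10 had by far the highest level. It reached 95.5 ± 3.70 CPM per kilobase in males (SD, n = 14) and 107 ± 3.58 in females (SD, n = 8). Atxn1, transcribed from chr13:45549756-45964991 on the minus strand with 10607 exon bases, came next with 18.1 ± 1.36 in males and 17.3 ± 1.16 in females. Neither of these genes overlapped its neighbour in the order. In males Atxn3 (10.8 CPM per kilobase), Atxn2 (9.96), Atxn2l (9.16) and Atxn1l (7.96) followed, each overlapping the next, and then Atxn7 (5.43) and Cic (5.25), which overlapped each other. In females the order was Atxn3 (10.8), Atxn2 (10.4), Atxn1l (8.05), Atxn2l (8.01), Cic (6.08) and Atxn7 (4.96), so that Cic and Atxn7 changed places. There the Atxn3 range overlapped that of Atxn2 and the Atxn1l range that of Atxn2l, and no other neighbours overlapped.

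**Figure D1:**
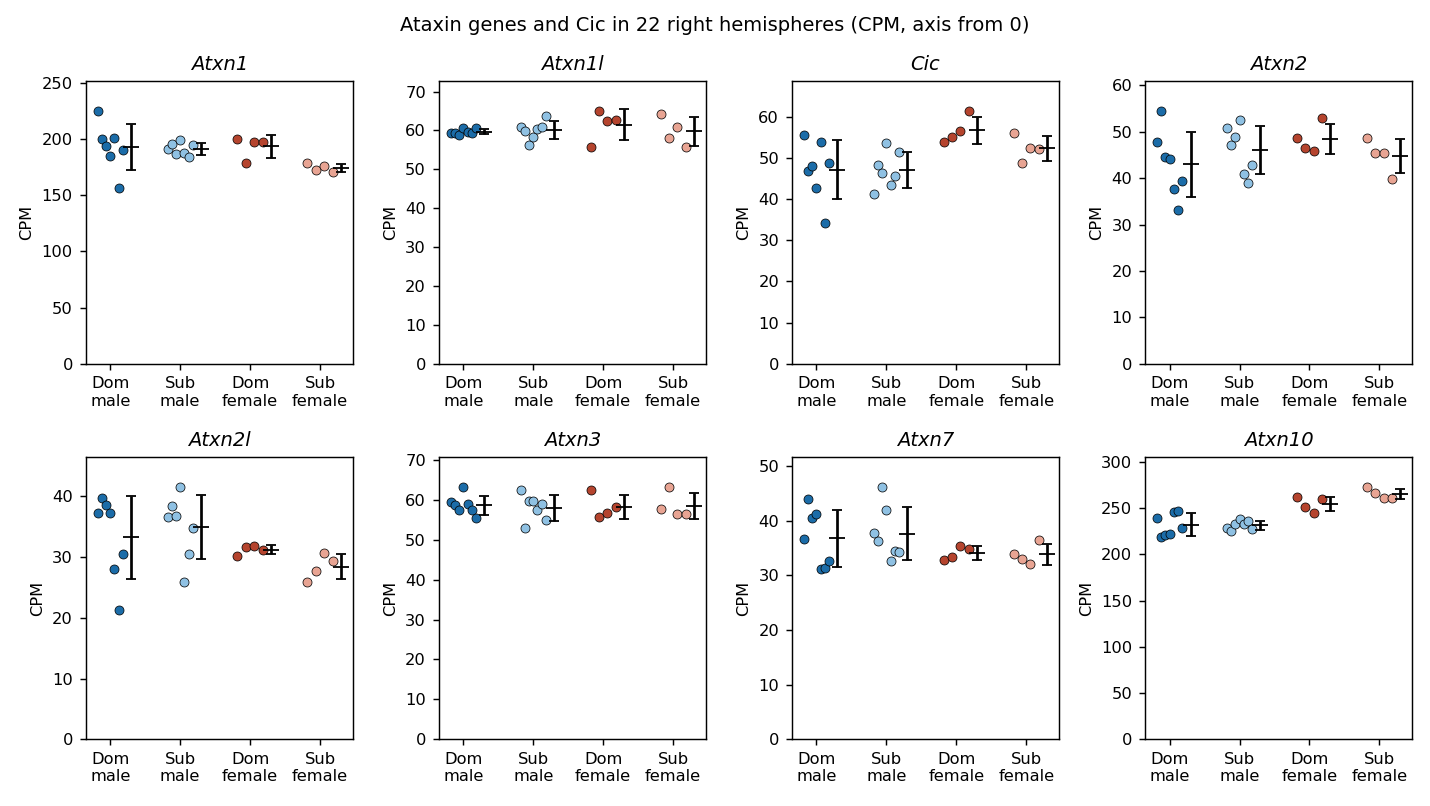
Level of each gene in CPM (vertical axis, from 0) in every mouse, by group (horizontal axis); points are mice in replicate order, and the dash with bars is the mean ± SD of 7 males or 4 females. Dominant male 6 is the lowest point for Atxn1 (156 CPM), Cic (34.1 CPM) and Atxn2l (21.2 CPM), and all Atxn10 values of submissive females lie above those of all males.

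The rank comparison asks whether a mouse that wins in its cage differs from the cagemate that loses. In males none of the 8 genes differed by rank, with edgeR's quasi-likelihood test and Benjamini-Hochberg adjustment over 14737 genes (adjusted p = 1.00 for each). No gene of the whole table was called (0.0%), 194 had an unadjusted p under 0.05, and DESeq2 called 0 with 179. Atxn1 ranged from 156 to 225 CPM in dominant males with a median of 194 CPM, and from 184 to 199 CPM in submissive males with a median of 191 CPM. The submissive range lay inside the dominant one. The log2 fold change was 0.013 ± 0.056 (SE, n = 7 per group), with a 95% interval from -0.11 to 0.13. Both ends of the dominant range were single libraries, Dominant male 1 at 225 CPM and Dominant male 6 at 156 CPM. Without the first, the log2 fold change was -0.027 and without the second it was 0.058, and neither was called.

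Atxn1l, the relative that can take the place of ataxin-1 in the Capicua complex, had the smallest SD relative to its mean over all males, 1.65 CPM at a mean of 59.9 CPM (n = 14). It ranged from 58.9 to 60.7 CPM in dominant males with a median of 59.5 CPM, and from 56.3 to 63.8 CPM in submissive males with a median of 60.4 CPM. Here the dominant values lay inside the submissive ones, with a log2 fold change of -0.0089 ± 0.034 (SE) and an interval from -0.083 to 0.065. Cic, the repressor itself, spread more widely. It ranged from 34.1 to 55.4 CPM in dominant males with a median of 48.0 CPM, and from 41.1 to 53.7 CPM in submissive males with a median of 46.3 CPM. The group means were alike, 47.1 CPM in both, but the SD was 7.15 CPM among dominant males and 4.41 CPM among submissive ones, and the interval of the log2 fold change ran from -0.19 to 0.19.

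Among the RNA-binding pair, Atxn2 was lower in the dominant mouse in 6 of 7 male cages, a tally that Atxn7 shared. It ranged from 33.2 to 54.4 CPM in dominant males with a median of 44.1 CPM, and from 38.9 to 52.6 CPM in submissive males with a median of 47.2 CPM. The log2 fold change was -0.10 ± 0.093 (SE) and the interval ran from -0.30 to 0.11. Leaving out 1 male moved the value between -0.16 (without Dominant male 2) and -0.042 (without Dominant male 6). An exact two-sided paired permutation test over the 7 cages gave p = 0.0938, where the smallest p possible is 0.0156, and the same test gave 0.391 or more for each other member. Atxn2l ranged from 21.2 to 39.6 CPM in dominant males and from 25.8 to 41.5 CPM in the submissive ones, with a log2 fold change of -0.074 ± 0.12 (SE) that was 0.012 without Dominant male 6.

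The enzyme gene Atxn3, the SAGA gene Atxn7 and Atxn10 showed no rank difference in males beyond their spread either. Atxn3 ranged from 55.4 to 63.1 CPM in dominant males and from 52.9 to 62.4 CPM in the submissive ones, and Atxn7 from 31.2 to 44.0 and from 32.6 to 46.2 CPM. Atxn10 ranged from 219 to 247 CPM in dominant males and from 225 to 238 CPM in submissive males, and its log2 fold change had an interval from -0.076 to 0.080.

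In females the values below describe the contrast that chose Atxn1. Atxn1 was 200, 179, 197 and 198 CPM in dominant females 1 to 4 and 178, 172, 176 and 171 CPM in submissive females 1 to 4. All 4 dominant values lay above all 4 submissive values, although Dominant female 2 exceeded Submissive female 1 only narrowly, and 5.46% of the 14865 genes tested had groups that did not overlap. The log2 fold change was 0.14 ± 0.036 (SE, n = 4 per group), and the dominant mouse was higher in 4 of 4 cages. edgeR called 14 genes (0.0942%) in this comparison and 36 with the cage as a block.

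A trend of the level with exon length ran through these libraries. It was fitted as a loess curve, on exon length, of log2 CPM minus the gene's mean over libraries. At the exon length of Atxn1 the mean of the curve, relative to the female table on the log2 scale, was 0.031 in dominant and -0.031 in submissive females. The curve lay above 0 in all 4 dominant and below 0 in all 4 submissive libraries. With the trend removed, the Atxn1 log2 fold change was 0.080 ± 0.033 (SE), and edgeR then called 0 genes, with 1122 at an unadjusted p under 0.05. The part of this trend in the Atxn1 difference beyond that refit was not tested. Of the 33 cell type markers, 0 were called by rank in females, and the 4 choroid plexus markers all had negative log2 fold changes with a median of -0.29. Their summed levels were 673 to 830 CPM in dominant and 645 to 978 CPM in submissive females, and their part in the Atxn1 values was not tested.

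Of the 8 members, 6 had a positive log2 fold change in females, where 49.1% of all genes did. Cic was 53.8, 55.1, 56.5 and 61.3 CPM in dominant and 56.0, 48.7, 52.3 and 52.2 CPM in submissive females. Submissive female 1 lay within the dominant range, and the log2 fold change was 0.11 ± 0.050 (SE), or 0.055 ± 0.048 with the length trend removed. Atxn1l, at 55.7, 64.9, 62.5 and 62.6 CPM in dominant and 64.3, 58.0, 61.0 and 55.8 CPM in submissive females, had groups that overlapped. Atxn2 and Atxn2l were higher in the dominant mouse of 4 of 4 cages. Atxn2 was 48.7, 46.5, 45.9 and 53.0 CPM in dominant and 48.6, 45.4, 45.5 and 39.8 CPM in submissive females. Its log2 fold change was 0.11 ± 0.058 (SE), and the widest gap of a cage, 0.41, was in Gr2. It was 0.055 without Submissive female 4 and 0.064 without Dominant female 4, the mice of that cage. Atxn2l was 30.2, 31.7, 31.8 and 31.1 CPM in dominant and 25.9, 27.7, 30.7 and 29.4 CPM in submissive females, and only Submissive female 3 reached the dominant range.

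Atxn10 went the other way, lower in the dominant mouse of all 4 female cages. It was 262, 251, 245 and 260 CPM in dominant and 273, 267, 261 and 261 CPM in submissive females, where only Dominant female 1 reached the submissive range, and the log2 fold change was -0.068 ± 0.031 (SE). Atxn3 was 62.4, 55.7, 56.6 and 58.1 CPM in dominant and 57.5, 63.2, 56.5 and 56.5 CPM in submissive females, and Atxn7 was 32.8, 33.4, 35.4 and 34.8 CPM in dominant and 33.8, 32.9, 32.0 and 36.5 CPM in submissive females. Both overlapped, with log2 fold changes of -0.013 and 0.0022 that were smaller than their SE. With the length trend removed, 4 of the 8 members had a positive log2 fold change, namely Atxn1, Cic, Atxn2 and Atxn2l. The difference between the sexes in the rank effect was not tested, because the female contrast chose Atxn1.

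**Figure D2:**
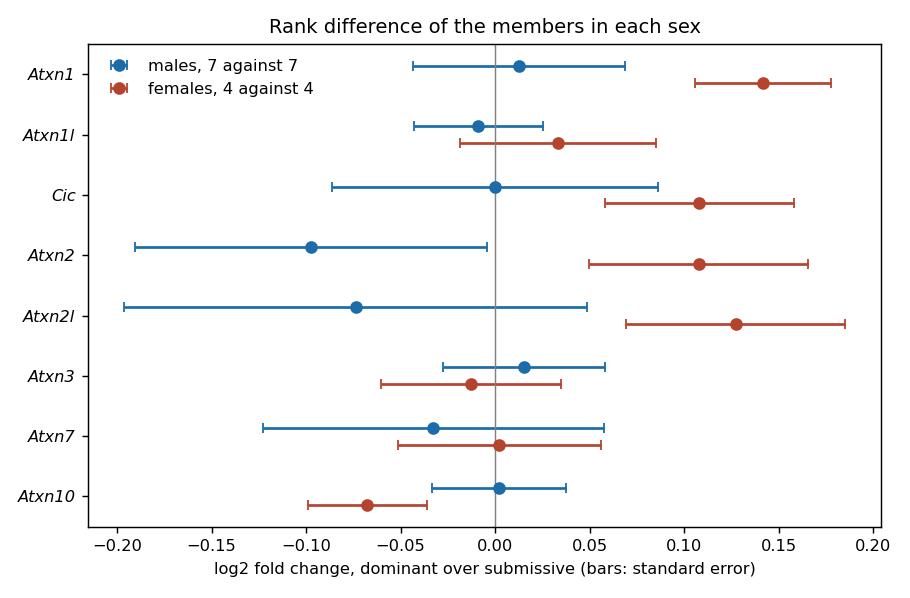
Log2 fold change of dominant over submissive mice (horizontal axis) for each gene (vertical axis) in males (7 against 7) and females (4 against 4); bars are standard errors. Atxn1 in females, at 0.14, describes the contrast that chose the gene, and the male values lie between -0.10 and 0.015 with adjusted p of 1.00.

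In males, 3 members differed between cages. With edgeR's test of any difference among the 7 cages, Atxn2l (adjusted p = 0.0215), Atxn2 (adjusted p = 0.0262) and Atxn7 (adjusted p = 0.0354) were called, 3 of 8 members against 5.89% of all genes. Cages followed each other in the numbering of the libraries, so cage and place in that order cannot be told apart. The levels of these genes fell into 2 sets of cages, a split made after their values were seen and given as a description. Atxn2 was 44.1 to 54.4 CPM in the 8 males of cages 1 to 4 and 33.2 to 42.9 CPM in the 6 males of cages 5 to 7. Atxn2l was 36.5 to 41.5 CPM in the first set and 21.2 to 34.8 CPM in the second. Atxn7 was 36.4 to 46.2 CPM in the first and 31.2 to 34.4 CPM in the second. The sets did not overlap for any of the 3 genes, as was true of 8.74% of all genes, and the log2 difference of the second set from the first was -0.33, -0.44 and -0.31 for Atxn2, Atxn2l and Atxn7.

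The other members were spread over both sets. Atxn1 was 197 ± 12.5 CPM (SD, n = 8) in the first and 186 ± 15.5 CPM (SD, n = 6) in the second set, Cic 47.8 ± 4.89 and 46.2 ± 7.03 CPM, and Atxn1l 59.2 ± 1.45 and 60.8 ± 1.56 CPM. Their adjusted p for cage were 0.341, 0.699 and 0.860, those of Atxn3 and Atxn10 0.492 and 0.614. Within cages 1 to 4 alone, or within cages 5 to 7 alone, none of the 8 genes was called (adjusted p = 1.00 and 0.901 to 0.962). edgeR called 2 genes of the whole table in the first set, with 453 at an unadjusted p under 0.05, and 0 in the second, with 673.

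The adjusted p of Atxn2, Atxn2l and Atxn7 moved in both directions with the setting. With DESeq2 it was 0.00268, 0.000224 and 0.0151, and with edgeR without the filter on low counts 0.00740, 0.00355 and 0.0136. Leaving out 1 male at a time, Atxn2 lost its call in 7 of 14 cases (Dominant male 3, 5, 6 or 7, Submissive male 3, 5 or 7), with adjusted p from 0.00558 to 0.0932 over the 14. Atxn2l lost it in 5 (Dominant male 2, 3 or 7, Submissive male 5 or 7), with adjusted p from 0.00483 to 0.0597, and Atxn7 in 10 (replicates 3 to 7 of either rank), with adjusted p from 0.00882 to 0.118. All 3 kept theirs without Dominant male 1. With the length trend removed, Atxn2l kept its call (adjusted p = 0.0360), and Atxn2 (0.0553) and Atxn7 (0.135) did not. Relative to the male table, the trend at the exon length of Atxn7 averaged 0.050 in the first set and -0.067 in the second, and at that of Atxn2 it averaged 0.024 and -0.032. At the length of Atxn1 it lay above 0 in all 8 males of the first set and below 0 in all 6 of the second, and Dominant male 6 had the lowest value, -0.21. Of the 33 markers, 3 were called by cage, where 5.89% of all genes were, each 1 of the 4 markers of its cell type. The neuronal Rbfox3 had 72.2 ± 4.00 CPM in the first and 85.8 ± 6.22 CPM in the second set. The astrocytic Aldh1l1 had 85.2 ± 4.62 and 94.9 ± 2.74 CPM, and the endothelial Cldn5 26.8 ± 2.94 and 37.9 ± 2.04 CPM. All 3 were higher where Atxn2, Atxn2l and Atxn7 were lower, and their part in the cage difference was not tested.

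**Figure D3:**
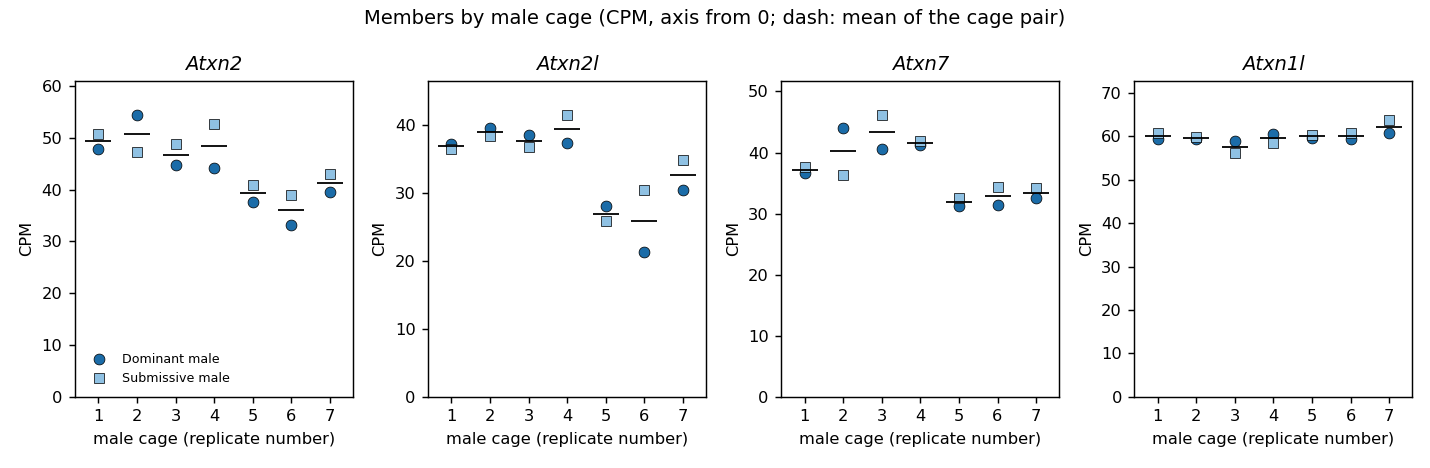
Level in CPM (vertical axis, from 0) of Atxn2, Atxn2l, Atxn7 and, for comparison, Atxn1l in each male cage (horizontal axis, by replicate number); circles are dominant and squares submissive males, and the dash is the mean of the pair. Atxn2, Atxn2l and Atxn7 are lower in replicates 5 to 7 than in replicates 1 to 4, and Atxn1l stays between 56.3 and 63.8 CPM.

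In females no member was called by cage (adjusted p = 0.999 for each; 0.074% of genes were called), nor between numbered cages and Gr1 with Gr2 (adjusted p from 0.909 to 0.992; 0.00673% called). Atxn2l came nearest in the second comparison, at 28.9 ± 2.57 CPM in the numbered cages and 30.7 ± 0.998 CPM in Gr1 and Gr2 (SD, n = 4 each).

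Across males, Cic was the member most like Atxn1. Over the 14 males, log2 CPM of the pair had a Pearson r of 0.875 and a Spearman correlation of 0.811, and 77 of the 6044 other genes with a mean count of at least 500 in both tables were more like Atxn1. The median r with Atxn1 over those genes was -0.061 in males and 0.164 in females. Without Dominant male 6 and Dominant male 1, the 2 males farthest from the median of Atxn1, r was 0.691. It was 0.782 within replicates 1 to 4 and 0.969 within replicates 5 to 7, 0.847 with the length trend removed, and 0.670 over the 8 females (0.403 with the trend removed). In females Cic did not stand apart, and Atxn2 had an r of 0.665 (0.562 with the trend removed) and a Spearman correlation of 0.881 against 0.714 for Cic. These points share library, depth and tissue piece, Atxn1 and Cic both have long exons, and r is given as a description.

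Atxn1l, the other partner of Capicua, had an r of -0.0067 with Atxn1 and -0.0095 with Cic over the males. With the length trend removed its r with Atxn1 was 0.521, still under that of Cic, and over the females it was 0.078 (-0.31 with the trend removed). The genes most like Atxn1 in males were D430041D05Rik (r = 0.946), Dscam (0.942), a cell adhesion molecule of neurons, Bcr (0.942), a regulator of small GTPases, Supt6 (0.937), a transcription elongation factor, and Inf2 (0.934), an actin-binding formin. In females their r was 0.767, 0.788, 0.959, -0.12 and 0.841, so that Supt6 was not alike there. Another group of members moved together in males, where Atxn2 had an r of 0.892 with Atxn2l and 0.812 with Atxn7, the genes that differed between the sets of cages. Over the females these pairs had an r of 0.060 and -0.34. No r within either set of male cages is given for them.

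**Figure D4:**
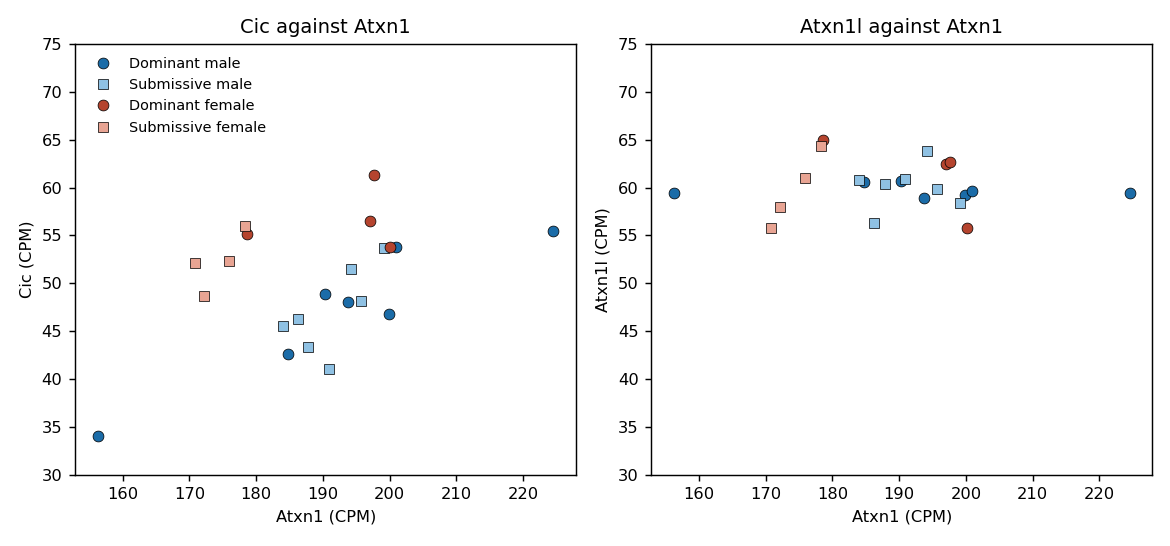
Cic (left) and Atxn1l (right) in CPM against Atxn1 in CPM for all 22 mice, with axes that do not start at 0; circles are dominant and squares submissive mice. Cic is lowest where Atxn1 is lowest, in Dominant male 6 (156 and 34.1 CPM), whereas Atxn1l stays between 55.7 and 64.9 CPM.

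Of the 8 members, 2 were called between the female and the male table, both higher in females, against 36.2% of all genes called in either direction (18.4% higher). With 8 members, nothing is read from their share. Atxn10 was 245 to 273 CPM in females and 219 to 247 CPM in males. The ranges met only at their edges, and the log2 fold change of female over male was 0.17 ± 0.026 (SE, adjusted p = 1.68e-05 with edgeR). Cic was 48.7 to 61.3 CPM in females and 34.1 to 55.4 CPM in males, with 0.21 ± 0.062 (SE, adjusted p = 0.00964 with edgeR). Atxn1l, Atxn2 and Atxn3 had log2 fold changes of 0.017, 0.069 and 0.0015, and Atxn7, Atxn2l and Atxn1 of -0.13, -0.19 and -0.065, none of them called.

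The Atxn1 value in this comparison depended on exon length. With the length trend removed it turned to 0.099 ± 0.038 (SE, adjusted p = 0.0448 with edgeR), and Atxn1l was also called at 0.12 (adjusted p = 0.0235), while Cic went from 0.21 to 0.35 and Atxn10 from 0.17 to 0.14, both still called. At the length of Atxn1 the trend was 0.060 in males and -0.10 in females relative to the mean of all 22 libraries on the log2 scale. Without Dominant male 6, Atxn1 (-0.098, adjusted p = 0.0140) and Atxn2l (-0.24, adjusted p = 0.00781) were called as lower in females, and Atxn2l also without Submissive male 5 (-0.23, adjusted p = 0.0274). Some markers were called between the tables as well, in both directions, where 36.2% of all genes were called. The 4 neuronal markers summed to 3606 to 3815 CPM in females and 2952 to 3377 CPM in males, and 2 of the 4 were called higher in females. Snap25 was at 0.45 and Rbfox3 at 0.39 on the log2 scale, while Syt1 was at 0.019 (adjusted p = 0.730 with edgeR) and Stmn2 at -0.025 (adjusted p = 0.438). Of the cerebellar markers, Calb1 (0.31), 1 of 5 for Purkinje cells, and Cbln1 (0.52) and Zic1 (0.41), 2 of 4 for granule cells, were called higher, and all 5 Purkinje markers had a positive log2 fold change. The Purkinje markers summed to 719 to 1119 CPM in females and 191 to 897 CPM in males, where the lowest male was Dominant male 1 and the other males began at 545 CPM. The microglial Cx3cr1 (0.35) was called higher and Csf1r (-0.25) lower. The astrocytic Aldh1l1 (-0.27) and Gja1 (-0.096), the oligodendrocytic Mbp (-0.25) and Kl (-0.36) of the choroid plexus were called lower, and 0 of 4 endothelial markers were called. The part of these markers in the differences of Cic and Atxn10 was not tested.

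**Figure D5:**
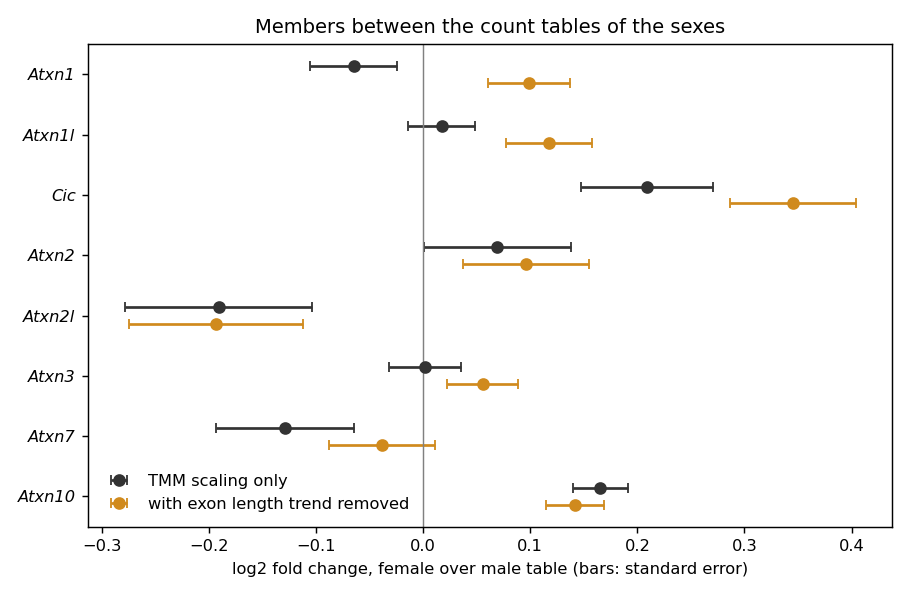
Log2 fold change of the female over the male table (horizontal axis) for each gene (vertical axis), with TMM scaling alone (dark) and with the exon length trend removed (orange); bars are standard errors. Cic and Atxn10 lie above 0 in both, and Atxn1 lies at -0.065 in the first and 0.099 in the second.

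The partners and targets of the members were followed in lists, whose genes were chosen from general knowledge with earlier results of these data known. By rank in males, 0 of the 52 tested genes of the 6 lists were called. Among Capicua targets the extremes were Dusp6, a phosphatase of ERK, at 0.13 ± 0.080 (SE, log2) and Dusp5 at -0.12 ± 0.21, and the median of the list was -0.0050 beside -0.0015 for all genes. In females, as a description, 0 were called and 11 of 12 Capicua targets had a positive log2 fold change, where 49.1% of all genes did. The median was 0.059 beside -0.0020 for all genes. The exon length trend was not removed from these values. Etv5 was at 0.18 ± 0.051 (SE) and Dusp5 at -0.075 ± 0.16. Among ataxin-1 partners the deacetylase gene Hdac3 had the smallest log2 fold change in females, -0.083 ± 0.038 (SE).

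The other lists had their extremes at these values. In males the polyglutamine disease genes ran from -0.14 (Atn1) to 0.025 (Tbp), the ataxin-1 partners had Kat5 as the highest at 0.020, and ataxin-2 partners ran from -0.048 (Ddx6) to 0.034 (Lsm12). Ataxin-3 partners ran from -0.035 (Ube4b) to 0.030 (Rad23b) and SAGA genes from -0.052 (Kat2a) to 0.083 (Atxn7l3). In females the polyglutamine genes ran from -0.066 (Tbp) to 0.20 (Atn1), ataxin-2 partners from -0.022 (G3bp2) to 0.10 (Ddx6), ataxin-3 partners from -0.12 (Stub1) to 0.080 (Ube4b) and SAGA genes from -0.13 (Taf6l) to 0.15 (Trrap).

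By male cage, 4 of the 52 list genes tested were called with edgeR, beside 5.89% of all genes. Each of the 4 had a lower mean in cages 5 to 7. Huntingtin (Htt, adjusted p = 0.00753) was 332 ± 9.62 CPM (SD, n = 8) in cages 1 to 4 and 276 ± 19.9 CPM (SD, n = 6) in the others. Atxn7l1 (adjusted p = 0.0120), a relative of Atxn7, was 14.5 ± 1.59 and 10.7 ± 0.432 CPM, and the SAGA subunit gene Supt20 (adjusted p = 0.0303) was 31.5 ± 1.79 and 25.8 ± 1.30 CPM. The Capicua target Spry4 (adjusted p = 0.0158) was 11.7 ± 2.30 and 8.54 ± 0.666 CPM. In female cages 0 list genes were called.

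Of 12 Capicua targets, 6 were called between the tables, 3 higher and 3 lower, where 18.4% of all genes were called higher and 17.8% lower. Etv5 (64.7 ± 6.06 CPM in females, 56.3 ± 5.59 CPM in males), Spry2 (46.9 ± 2.70 and 36.6 ± 2.48 CPM) and the adaptor gene Shc3 (40.2 ± 2.55 and 30.2 ± 2.55 CPM) were higher in the female table. Etv1 (62.1 ± 3.24 and 69.5 ± 6.46 CPM), Etv4 (5.98 ± 0.635 and 7.03 ± 1.05 CPM) and Dusp4 (7.85 ± 1.23 and 9.76 ± 1.39 CPM) were lower.

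The remaining lists also split by table. Of the ataxin-1 partners, the splicing factor gene Rbm17 (0.20 on the log2 scale) and Hdac3 (0.075) were called higher. Of the ataxin-3 partners, the segregase gene Vcp (0.10) and the deubiquitinase gene Josd1 (0.13) were called higher and the ubiquitin ligase gene Ube4b (-0.19) lower. Of the SAGA list, in which Sgf29 was not among the genes tested, 7 of 15 were called higher and 5 lower, from 0.39 for Atxn7l3b to -0.38 for Atxn7l1 on the log2 scale. The polyglutamine genes Htt (-0.35) and Atn1 (-0.36) were called lower in the female table, as were Pabpc1 (-0.14) and Ddx6 (-0.18) of the ataxin-2 partners, beside 17.8% of all genes.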

How the data were processed

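Total RNA of right hemispheres was depleted of ribosomal RNA and sequenced as stranded libraries by the authors, who removed adapters (cutadapt 1.15), trimmed low-quality ends (bbduk), aligned to mm10 (STAR 2.6.0a) and summarised the alignments by gene (featureCounts 1.6.2). The deposited values are raw counts per gene, 1 table per sex. The deposited exon length of each gene was used for levels per kilobase. Strand and multimapping settings are not given in the sources used here. Of the 24421 genes, 27 have names turned into dates.

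CPM were computed from these counts with TMM factors in edgeR 4.0.16 (R 4.3.3), and log2 CPM with a prior count of 2. Genes passed edgeR's expression filter (minimum count 10, minimum total 15). The quasi-likelihood test compared ranks within each sex, cages within each sex, numbered cages with Gr1 and Gr2, and the female with the male table, with Benjamini-Hochberg adjustment over all genes and a threshold of 0.05. DESeq2 1.42.0 was an alternative. The length correction took as an offset each library's loess (span 0.3), on log2 exon length, of log2 CPM minus the gene's mean over libraries. For each comparison the main edgeR fit and DESeq2 were tested on simulated data, which held no length trend. The other settings were not tested in this way. The members, the gene lists and the markers were chosen with earlier results of these data known, and the cage sets of males were split after their values were seen. Named list genes are those called and the largest and smallest log2 fold change of a list in each rank comparison. Some list genes are not reported here.

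Groups and replicate numbers came from the labels. Library names place same-numbered mice in 1 cage, and cagemates were killed together, so the numbers pair them. Deviations of same-numbered mice from their group means correlated at 0.177 on average in males (lowest -0.035, other pairs -0.029) and at 0.024 in females (other pairs -0.0080). The dominant mouse correlated best with its own cagemate in only 1 of 7 male and 1 of 4 female pairs. Among 54 replicate pairs the lowest chi-square per gene was 1.81, above the value of 1 that counting noise gives. P-values measure the spread between mice, and counts cover sampling of reads only.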

Additional observations from a re-analysis of the deposited data

Results flagged for a closer look

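In 2 groups of 4 females, 1 mouse lay farther from the others than Dixon's 95% limit allows. Dominant female 2 had the lowest Atxn1 of the dominant females, 179 CPM, against 197 to 200 CPM in the other 3. Submissive female 2 had the highest Atxn3 of the submissive females, 63.2 CPM, against 56.5 to 57.5 CPM. In all, 32 groups of values were examined, and chance alone gives about 1 in 20. Without Dominant female 2, the log2 fold change of Atxn1 by rank was 0.18, as a description.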

How the results depend on the processing

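By rank in males no gene was called under DESeq2, its size factors, no filter, the robust prior, the length correction, a block for the replicate number (cage) or the loss of 1 mouse. The replicate block changed no member's call in males, gave 0 genes in males (338 at an unadjusted p under 0.05), and 36 in females. In males, log2 fold changes near 0 turned sign. Cic was -0.00115 with DESeq2, -0.000602 with its size factors, -0.000622 without the filter and -0.0067 with the block, and Atxn1l was 0.015 with the length correction and 0.016 with block and correction. Leaving out 1 mouse gave -0.027 to 0.058 for Atxn1, -0.023 to 0.0061 for Atxn1l, -0.043 to 0.066 for Cic, -0.16 to -0.042 for Atxn2, -0.14 to 0.012 for Atxn2l, -0.0056 to 0.035 for Atxn3, -0.081 to 0.024 for Atxn7 and -0.014 to 0.015 for Atxn10.

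By rank in females the count of genes was 78 with DESeq2, 84 without the filter, 0 with the length correction, 8 with block and correction, and 0 in 1 fit over all 22 mice (579 at an unadjusted p under 0.05). Without 1 mouse it ran from 0 (Submissive female 1 or 3) to 77 (Dominant female 2), and was 7, 1 and 3 without Dominant female 1, 3 and 4, and 27 and 3 without Submissive female 2 and 4.

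By male cage DESeq2 gave 977 genes, its size factors 871 and no filter 1196, each with 3 members, and the length correction left 547 genes and 1 member. Replicates 1 to 4 alone gave 2 genes and 0 members, and replicates 5 to 7 alone gave 0 genes and 0 members, both chosen after seeing the data and with fewer mice. Without 1 mouse the count ran from 381 to 2102 genes and 0 to 3 members. By female cage it was 5 with DESeq2, 99 without the filter and 7 to 92 without 1 mouse.

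Between numbered cages and Gr1 with Gr2 it was 2 with DESeq2, 20 without the filter, 2 with the length correction and 0 to 6 without 1 mouse. There, leaving out 1 mouse gave -0.016 to 0.048 for Atxn1, -0.063 to 0.032 for Atxn1l and -0.10 to 0.016 for Atxn2.

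Between the tables the length correction called 4 members, with Atxn1 at 0.099, and leaving out 1 mouse called 2 to 4. Atxn3 was -0.00104 with DESeq2 and -0.00213 with its size factors, and without 1 mouse it ran from -0.028 to 0.0019 and Atxn1l from -0.011 to 0.029. The causes were not tested, except that fewer mice or genes enter some fits.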
